A study of Mus musculus with 18 samples.

Results

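Transcription factor genes that hold the macrophage state, or are known as repressors of osteoclast formation, were followed in bone marrow-derived macrophages (BMDMs). The cells were given RANKL, the signal under which macrophage precursors fuse into osteoclasts, the cells that dissolve bone. The genes were Irf8, Maf, Bcl6, Id2, Cebpa, Cebpb, Spi1 and Klf4, picked by name from the 34745 genes of the table. All 8 were found and all 8 passed the filter on low counts, which kept 14241 genes. The libraries fell into 6 groups of 3, with cells of Zmat1 knockout mice (labelled KO) or of their wild-type littermates (labelled WT) sampled before RANKL (day 0) and after 1 or 3 days of it. Every culture, those at day 0 included, had grown in M-CSF, the growth factor that supports macrophages. Per the methods of the study the mice were on a C57BL/6 background and bred from heterozygotes, so that every cell of a knockout animal carried the deletion. The labels do not say whether libraries with the same number came from the same animal, so the p-values here measure the spread between libraries.

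A myeloid precursor can become a macrophage or, with M-CSF and RANKL, an osteoclast, and the choice is made by competing transcription factors. Spi1, which encodes PU.1, and the C/EBP factors Cebpa and Cebpb build the myeloid programme and are used by both cell types, PU.1 as a partner of the osteoclast regulators NFATc1 and MITF. IRF8, BCL6, the MAF family and the inhibitor of differentiation ID2 are known to hold back Nfatc1 or its target genes, and Blimp1 (Prdm1), itself switched on in the osteoclast lineage, is known to repress several of these repressors. KLF4 is a zinc finger factor of monocytes and macrophages.

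Total counts ran from 13789775 to 17559958 per library, and levels are given as CPM, the usual per-library scaling of counts, with library sizes adjusted by edgeR's TMM factors. Zmat1 itself lay between 2.19 and 7.50 CPM in the libraries labelled WT and between 3.49 and 7.61 CPM in those labelled KO. It did not pass the test between the labels on day 0 (adjusted p = 0.930), day 1 (adjusted p = 0.821) or day 3 (adjusted p = 0.615). The log2 differences (KO over WT) were 0.24, 0.40 and 0.63, each towards the KO label. The study reports a qPCR check of Zmat1 mRNA in BMDMs of both genotypes. Counts per gene do not show which exons the reads came from, so the labels were neither borne out nor contradicted by Zmat1, and the groups are called by their labels throughout. A double hyphen stood in 5 of the 18 titles. These were WT day 0 library 1, KO day 0 library 2 and KO day 1 libraries 1 and 2. The fifth belonged to WT day 1, where the number 1 was used for a pair of libraries. That WT day 1 library stood apart from the other 2 of its group in several of the factors below, and WT day 0 library 1 stood apart in Cebpa and in stromal genes.

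The cultures also differed in the markers of other cells. Of 8 macrophage markers 7 were lower on day 3 than on day 0 in each label, with the summed level going from 28924 to 56902 CPM down to 6174 to 12793 CPM in the libraries labelled WT and from 33169 to 59505 CPM down to 8451 to 17117 CPM in those labelled KO. The summed level of 8 stromal or osteoblast markers, collagens among them, went from 86.1 to 4527 CPM on day 0 up to 10648 to 13782 CPM on day 3 (WT) and from 1055 to 3591 CPM up to 19068 to 28216 CPM (KO), with 5 and 7 of the 8 called higher. In every group none of the 8 stromal markers was at 0 in all libraries. All 8 neutrophil markers were lower on day 3 in each label, from a summed 662 to 3012 CPM down to 35.8 to 66.9 CPM (WT) and from 3650 to 11714 CPM down to 97.6 to 1147 CPM (KO). Of 8 B cell markers 6 (WT) and 4 (KO) were lower. Over all genes tested 26.5% (WT) and 22.3% (KO) were called lower on day 3, and 23.7% and 20.2% higher. The summed level of 6 erythroid markers split the libraries by title style. It was 0 to 0.33 CPM in those with a double hyphen and 15.6 to 23.8 CPM in the rest. No day 3 library had a double hyphen, so title style was partly tied to the day. In RNA from whole cultures, fewer cells of a type and less RNA per cell cannot be told apart. The part of these shifts in the changes of the 8 factors was not tested.

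**Figure D1:**
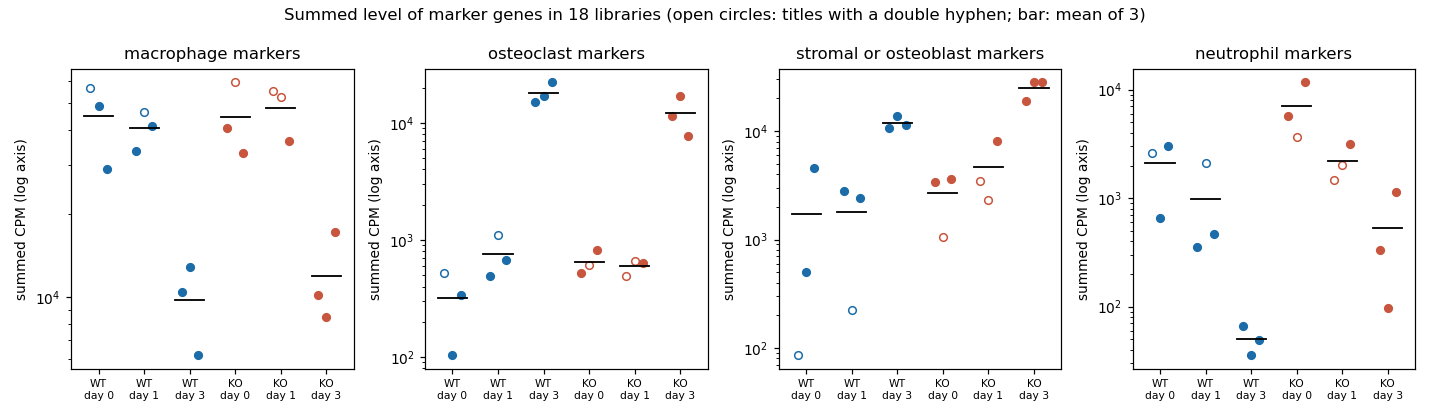
Summed CPM (log axis) of the marker genes of 4 cell types in each of 18 libraries by label and RANKL day, each circle a library, open circles titles with a double hyphen and bars means of 3. Macrophage and neutrophil markers were lowest on day 3 and osteoclast and stromal markers highest, with stromal markers at 10648 to 13782 CPM (WT) and 19068 to 28216 CPM (KO).

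The stretch of 250 bases before the gene start (for Klf4, a start 9 bases from that of the table) was taken from RefSeq (GRCm38.p6) for 6 of the 8 factors, Spi1 and Maf having no entry matched. Sequences are shown for the 4 of these 6 whose level passed the test on day 3, so that the letters before their starts can be compared. Capitals mark any match, on either strand, to 8 short motifs, namely TGANTCA (AP-1), GAGGAAG (PU.1), TTGCNNAA (C/EBP), GAAANNGAA (IRF), GGAAAA (NFAT), TGCTGAC (MAF), CAGGTG (an E-box) and GGGCGG (SP or KLF factors).
Irf8 (chr8:120736108-120736357, plus strand): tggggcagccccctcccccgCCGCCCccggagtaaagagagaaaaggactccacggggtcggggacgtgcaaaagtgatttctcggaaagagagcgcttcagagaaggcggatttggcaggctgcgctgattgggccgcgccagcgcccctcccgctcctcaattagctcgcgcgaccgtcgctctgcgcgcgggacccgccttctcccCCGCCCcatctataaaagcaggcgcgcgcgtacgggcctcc
Bcl6 (chr16:23988853-23989102, minus strand): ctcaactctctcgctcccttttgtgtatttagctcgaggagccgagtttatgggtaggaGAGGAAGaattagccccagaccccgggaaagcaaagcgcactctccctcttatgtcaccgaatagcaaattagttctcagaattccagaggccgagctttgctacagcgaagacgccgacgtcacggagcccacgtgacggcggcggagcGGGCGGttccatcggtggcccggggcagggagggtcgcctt
Cebpb (chr2:167688665-167688914, plus strand): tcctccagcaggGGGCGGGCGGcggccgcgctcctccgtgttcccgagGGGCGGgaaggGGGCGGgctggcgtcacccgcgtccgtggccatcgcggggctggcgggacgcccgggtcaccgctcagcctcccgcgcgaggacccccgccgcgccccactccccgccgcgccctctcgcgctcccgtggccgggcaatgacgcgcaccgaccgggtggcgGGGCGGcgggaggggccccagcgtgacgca
Klf4 (chr4:55532476-55532725, minus strand): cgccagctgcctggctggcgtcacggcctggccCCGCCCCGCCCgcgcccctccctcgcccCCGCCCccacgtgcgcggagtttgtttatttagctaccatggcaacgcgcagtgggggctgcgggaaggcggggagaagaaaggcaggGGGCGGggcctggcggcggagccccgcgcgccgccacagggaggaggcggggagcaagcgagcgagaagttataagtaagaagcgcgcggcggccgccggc
All the capitals in the Irf8, Cebpb and Klf4 stretches belong to GGGCGG or its reverse complement, with 2 matches before Irf8, 5 before Cebpb, of which the first pair overlap, and 4 before Klf4, of which the first pair overlap. Bcl6 held 1 GGGCGG match and 1 GAGGAAG match. Over 32841 promoter stretches of the same length GGGCGG occurred in 32.7% and GAGGAAG in 10.6%. The remaining letters searched (NFAT 20.4%, E-box 17.2%, C/EBP 9.57%, IRF 7.13%, AP-1 6.75% and MAF 3.81% of stretches) had no match before these 4 starts. A second start of Irf8 (chr8:120738389-120738638) held 1 CAGGTG match and a second start of Bcl6 (chr16:23981284-23981533) 2 GGAAAA matches. The Id2 stretch held 1 GGGCGG match, and the Cebpa stretch held no match to any of the 8. G and C made up from 54.0% (the second start of Irf8) to 81.6% (Cebpb) of the stretches. A match is a run of letters and was not read as a bound site.

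Irf8, which encodes a factor needed for macrophage and dendritic cell development and a repressor of Nfatc1, showed the largest fall of the 8 factors in both labels. It lies on chr8:120736358-120756694 (plus strand, GRCm38), with 5 to 9 exons in its 4 annotated coding transcripts. In the libraries labelled WT it was at 433, 357 and 356 CPM on day 0 and at 72.7, 89.2 and 32.7 CPM on day 3. All day 3 libraries lay far below all day 0 libraries. The log2 fold change was -2.56 ± 0.37 (SE, n = 3 and 3), or 5.90-fold lower, with an adjusted p of 9.5e-05 in edgeR's quasi-likelihood test with Benjamini-Hochberg adjustment. In the libraries labelled KO it went from 384, 427 and 382 CPM to 76.1, 59.5 and 111 CPM, and the log2 fold change was -2.28 ± 0.37 (adjusted p = 0.000343). These groups did not overlap either.

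Maf, a large MAF family factor that macrophages use to hold their differentiated state, fell by day 3 in both labels. It lies on chr8:115682942-115707794 (minus strand). In the libraries labelled WT it was at 802, 901 and 645 CPM on day 0 and at 177, 239 and 136 CPM on day 3, and the groups did not overlap. The log2 fold change was -2.09 ± 0.22 (adjusted p = 1.02e-05), the smallest adjusted p of the 8 factors. In the libraries labelled KO it went from 705, 757 and 652 CPM to 298, 206 and 272 CPM, again without overlap, and the change was -1.44 ± 0.21 on the log2 scale (adjusted p = 0.00018). The fall was 4.25-fold under the WT label and 2.72-fold under the KO label, and the difference between the labels in this change (0.64 ± 0.29 on the log2 scale, adjusted p = 0.91, unadjusted p = 0.0456) did not pass the test.

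Cebpb, a C/EBP factor of macrophage activation that is also expressed as isoforms with opposite effects on osteoclast formation, is a gene of a single exon on chr2:167688915-167690418 (plus strand). On day 0 it was at 137, 149.5 and 133 CPM in the libraries labelled WT and at 169, 170.2 and 179 CPM in those labelled KO. On day 3 it was at 48.3, 63.9 and 44.5 CPM (WT) and at 65.4, 39.1 and 66.3 CPM (KO), below every day 0 library of its label. The log2 fold changes were -1.42 ± 0.31 (adjusted p = 0.00197) and -1.60 ± 0.31 (adjusted p = 0.0013). Its isoforms arise from a single messenger RNA and cannot be told apart in these counts. The gene overlaps Tmem189 on the opposite strand, which had 1047 to 1993 counts per library, and since it is not stated whether counting used strand, the level of Cebpb is uncertain by the reads the pair may share.

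Bcl6, which encodes a repressor that sits on osteoclast genes until RANKL removes it, changed less. It lies on chr16:23965052-23988852 (minus strand) with 10 exons in its coding transcript. Its day 0 values under the WT label were 40.6, 23.0 and 34.9 CPM and its day 3 values 19.98, 21.9 and 17.95 CPM, so that the groups were separated by a narrow gap. Under the KO label it was at 42.3, 48.1 and 39.1 CPM on day 0 and at 23.3, 23.6 and 29.2 CPM on day 3. The log2 fold changes were -0.72 ± 0.28 (adjusted p = 0.0469) and -0.77 ± 0.28 (adjusted p = 0.0403), just inside the threshold. Bcl6 was called in 4 of 18 alternative analyses under the WT label and in 8 of 18 under the KO label, with the same direction in every one. With the replicate number as a block within each label, which pairs the KO libraries of days 0 and 3, the KO value was -0.74 (adjusted p = 0.0561).

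Klf4 was the single factor of the 8 that rose. It lies on chr4:55527143-55532466 (minus strand) and was the lowest of the 8 per length (FPKM) on day 0 in both labels. In CPM it was at 4.86, 4.88 and 5.08 CPM under the WT label and at 6.70, 4.85 and 4.51 CPM under the KO label. On day 3 it was at 14.2, 14.9 and 17.5 CPM (WT) and at 17.4, 20.2 and 11.7 CPM (KO), above every day 0 library. The log2 fold changes were 1.65 ± 0.30 (adjusted p = 0.000555) and 1.62 ± 0.30 (adjusted p = 0.000964), or 3.14-fold and 3.06-fold higher. Klf4 is also expressed in stromal cells, and the summed stromal markers rose in the same libraries, as given above.

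Cebpa, the C/EBP factor that commits precursors to the myeloid line, turned on a single library. It lies on chr7:35119293-35121928 (plus strand). Under the WT label it was at 22.6, 221 and 267 CPM on day 0 and at 114, 151 and 68.7 CPM on day 3. Library 1, at 22.6 CPM (274 counts), lay below all the other 17 libraries, whose lowest value was 68.7 CPM. The summed stromal markers were also lowest in this library of the WT day 0 group, at 86.1 CPM against 501 and 4527 CPM. Among 4126 genes above 50 CPM, 29 stood further below the other 2 WT day 0 libraries in this library than Cebpa did, with the collagen genes Col11a1 and Col1a1 among the lowest. Whether the stromal level has a part in the Cebpa value was not tested. The groups overlapped and the log2 fold change of -0.62 ± 0.55 did not pass the test (adjusted p = 0.362). Without that library it was -1.10 and passed (adjusted p = 0.00677). The libraries labelled KO went from 285, 281 and 294 CPM to 151, 118 and 166 CPM without overlap, a log2 fold change of -0.99 ± 0.55 that did not pass the test in the fit of all libraries (adjusted p = 0.164). Fitted on the 6 libraries of these 2 groups alone, where WT day 0 library 1 adds nothing to the estimate of spread, the KO change was -0.99 with an adjusted p of 0.00276, and without the 5 double hyphen libraries it was -0.95 (adjusted p = 0.0186). An antisense gene over the start of Cebpa had 0 to 13 counts per library.

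Spi1, which encodes PU.1, did not pass the test in either label. It lies on chr2:91082390-91115756 (plus strand). Its values were 413, 360.1 and 309 CPM on day 0 and 359, 339 and 419.5 CPM on day 3 under the WT label, with full overlap and a log2 fold change of 0.05 ± 0.17 (adjusted p = 0.828, 95% interval -0.32 to 0.41), or 0.42 with total counts in place of TMM (adjusted p = 0.0622). Total counts moved the median of all genes up in both labels, as given under the dependence on processing. The libraries labelled KO were at 347, 364 and 349 CPM on day 0 and at 306, 287 and 203 CPM on day 3, so that the groups did not overlap. The KO log2 fold change of -0.41 ± 0.17 did not pass the test (adjusted p = 0.0576), and with total counts it was -0.11 (adjusted p = 0.625). With the replicate number as a block within each label it was -0.44 and passed (adjusted p = 0.0426), and without KO day 3 library 1 it was -0.53 (adjusted p = 0.0421), but -0.25 without KO day 3 library 3 (adjusted p = 0.23).

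Id2, which encodes a protein without a DNA-binding region that ties up E-box factors, varied widely within groups. It lies on chr12:25093801-25096092 (minus strand). Under the WT label it was at 32.7, 12.4 and 20.2 CPM on day 0 and at 18.2, 19.7 and 20.5 CPM on day 3, and the day 3 values fell inside the day 0 range. The log2 fold change was -0.16 ± 0.47 (adjusted p = 0.795), and it was 0.29 without WT day 0 library 1. The libraries labelled KO were at 28.5, 48.1 and 44.9 CPM on day 0 and at 18.7, 15.5 and 27.2 CPM on day 3. These groups did not overlap, but the log2 fold change of -0.98 ± 0.48 did not pass the test (adjusted p = 0.107). It passed in 3 of 18 alternatives, namely the 6 libraries of these groups alone (-0.99, adjusted p = 0.0259), without the 5 double hyphen libraries (-0.79, adjusted p = 0.0437) and with the WT day 1 libraries numbered 1 averaged (-0.96, adjusted p = 0.0389).

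Counted together, 5 of the 8 factors passed the test on day 3 against day 0 under the WT label, 4 lower (Irf8, Maf, Bcl6 and Cebpb) and 1 higher (Klf4), where 50.2% of all genes tested were called, 26.5% lower and 23.7% higher. The KO count was again 5, with Irf8, Maf, Bcl6 and Cebpb lower and Klf4 higher, where 42.5% of all genes were called, 22.3% lower and 20.2% higher. These counts come from the fit of all libraries, which used no block. With the replicate number as a block within each label the KO count stayed 5, with Spi1 in place of Bcl6. The groups did not overlap in 5 of 8 factors (WT) and in 8 of 8 (KO), against 62.5% and 58.8% of all genes. The median log2 fold change of the 8 was -0.67 (WT) and -0.98 (KO), beside -0.03 and -0.01 over all genes. The WT median was -0.32 with total counts and -0.01 with limma on FPKM, neither of which uses TMM. With total counts the median of all genes moved up as well, as given under the dependence on processing.

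**Figure D2:**
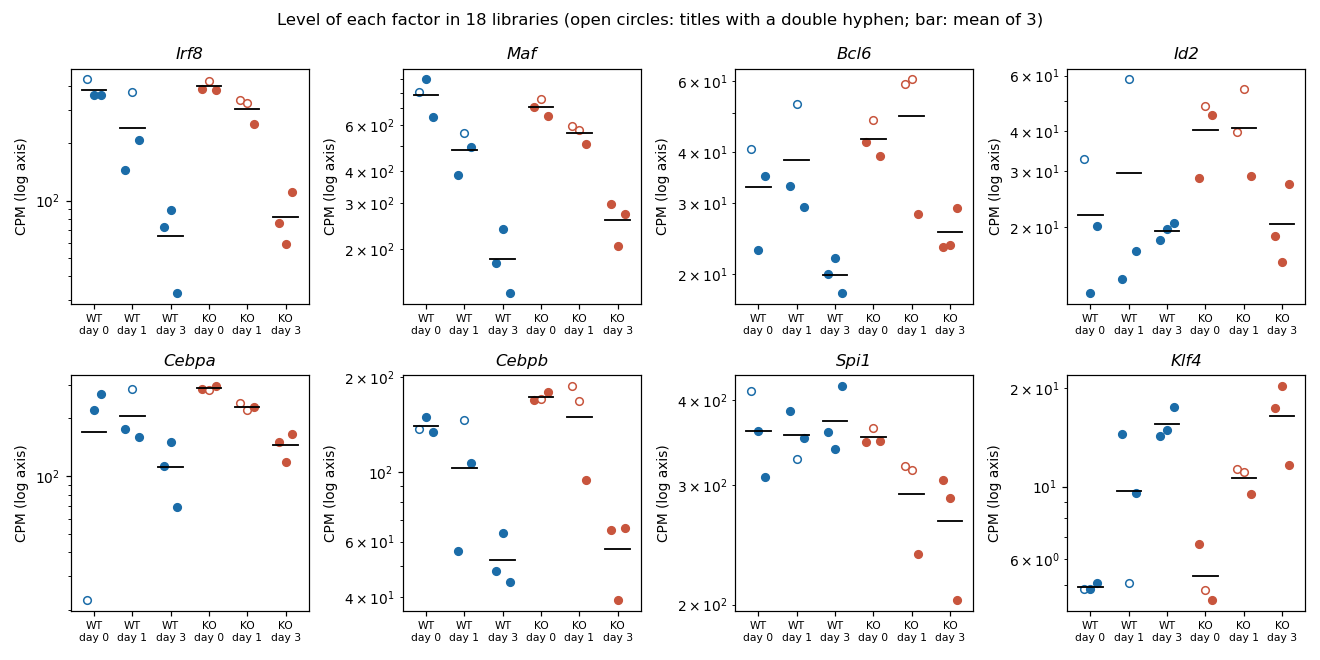
CPM (log axis) of each of the 8 factors in the 18 libraries by label and RANKL day, each circle a library, open circles titles with a double hyphen and bars means of 3. By their means Irf8, Maf and Cebpb lie lowest on day 3 and Klf4 highest, while Cebpa shows the single WT day 0 library at 22.6 CPM. Under the WT label the libraries of days 1 and 3 overlap for Cebpb and Klf4.

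In the fit of all libraries, most of the fall in Irf8, Maf, Bcl6 and Cebpb came between day 1 and day 3, and for Bcl6 and Cebpb under the KO label this turned round without the double hyphen libraries, as given with those values. Against day 0, none of the 8 factors was called on day 1 under either label, where 2.35% (WT) and 0.0211% (KO) of all genes were called. At an unadjusted p under 0.05 the counts were 2 (WT) and 1 (KO), where 2914 and 1456 of the 14241 genes reached it. DESeq2 called 2 and 0 of the factors and 1221 and 170 of all genes. The libraries of days 0 and 1 did not overlap in 2 of 8 factors (WT) and 5 of 8 (KO), against 16.5% and 19.1% of all genes. Under the WT label Maf was at 385, 561 and 496 CPM on day 1, below every day 0 library, and its log2 fold change of -0.70 ± 0.21 had an adjusted p of 0.0812. Klf4 was at 14.4, 5.08 and 9.58 CPM, and changed by 0.98 ± 0.30 on the log2 scale (adjusted p = 0.0894). The middle value in each of these lists is the library with the double hyphen, and for Klf4 it lay at the level of day 0. Without it Maf (-0.82, adjusted p = 0.0358) and Klf4 (1.28, adjusted p = 0.00806) both passed the test, and Maf also passed without WT day 0 library 3 (-0.82, adjusted p = 0.0425). Irf8 showed the same spread, at 144, 370.1 and 209 CPM, the 370.1 CPM of the double hyphen library lying inside the day 0 range, and its log2 fold change of -0.67 ± 0.35 (adjusted p = 0.297) became -1.11 without that library (adjusted p = 0.0519). The summed stromal markers were at 225 CPM in that library and at 2774 and 2418 CPM in the other 2.

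The other factors did not separate from day 0 on day 1 under the WT label. Cebpb was at 56.2, 146 and 107 CPM (-0.44 ± 0.31, adjusted p = 0.442) and Id2 at 13.7, 58.4 and 16.8 CPM (0.44 ± 0.48, adjusted p = 0.65), with the double hyphen library highest in both. Without that library Id2 changed by -0.50. Bcl6 was at 33.0, 52.6 and 29.3 CPM, Cebpa at 177, 283 and 159.5 CPM and Spi1 at 386, 328 and 352 CPM, and each overlapped its day 0 range.

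For the KO label Irf8 (337, 324 and 252 CPM) and Maf (598, 576 and 509 CPM) lay below their day 0 libraries on day 1, with log2 fold changes of -0.39 ± 0.35 (adjusted p = 0.757) and -0.33 ± 0.21 (adjusted p = 0.626). Klf4 was at 11.3, 11.1 and 9.53 CPM, above every day 0 library, and its log2 fold change of 0.99 ± 0.30 had an adjusted p of 0.288. Spi1 was at 319.8, 316 and 237 CPM and Cebpa at 239, 219.8 and 229.6 CPM, both below every KO day 0 library, with log2 fold changes of -0.28 ± 0.17 (adjusted p = 0.602) and -0.32 ± 0.55 (adjusted p = 0.887). Over all genes 19.1% did not overlap between these 2 groups of libraries. Bcl6 (58.9, 60.6 and 28.2 CPM), Id2 (39.8, 54.4 and 28.9 CPM) and Cebpb (187, 168 and 94.0 CPM) overlapped their day 0 ranges. In each of them library 3, the only KO day 1 library without a double hyphen, was the lowest. On WT day 1 the double hyphen library was the highest in the same factors.

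From day 1 to day 3, 4 factors were lower in each label, in both Irf8, Maf, Bcl6 and Cebpb, where 19.3% (WT) and 15.5% (KO) of all genes were called lower. Irf8 changed by -1.89 ± 0.36 on the log2 scale under the WT label (adjusted p = 0.00166) and by -1.89 ± 0.36 under the KO label (adjusted p = 0.00195). Maf changed by -1.39 ± 0.21 (adjusted p = 0.00041) and -1.12 ± 0.21 (adjusted p = 0.00178). The WT count of 4 was 2 without the double hyphen library of WT day 1, with Bcl6 and Cebpb no longer called, and likewise 2 without WT day 3 library 1 or 3. The KO count of 4 was 0 without the 5 double hyphen libraries, which leaves KO day 1 with 1 library. In that fit Irf8 was at -1.58 (adjusted p = 0.0708) and Maf at -0.94 (adjusted p = 0.106). Bcl6 was at -0.12 (adjusted p = 0.776) from day 1 to day 3, with -0.51 already from day 0 to day 1, and Cebpb at -0.69 (adjusted p = 0.268), with -0.87 before it. The comparisons of days within a label share their libraries and are not independent of each other.

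**Figure D3:**
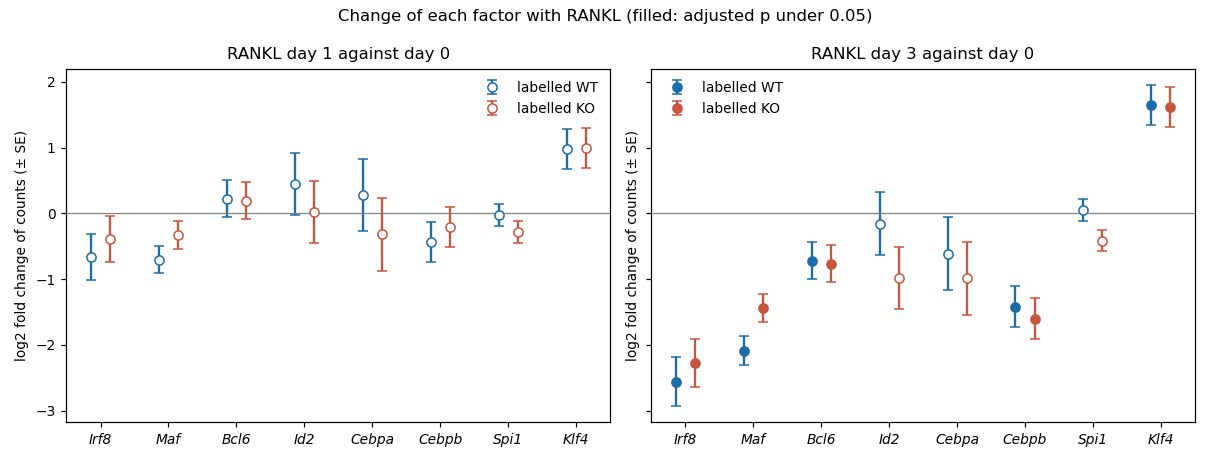
Log2 fold change (± SE) of the 8 factors on RANKL day 1 and day 3 against day 0, blue for the libraries labelled WT and red for those labelled KO, filled where the adjusted p was under 0.05. No factor is filled on day 1 and 5 are filled in each label on day 3.

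The design also asks whether the Zmat1 genotype alters these factors. No factor was called between the labels on any day, where 0.119% (day 0), 0.112% (day 1) and 0.14% (day 3) of all genes were called. DESeq2 also called 0 of the 8 on each day, and 64, 76 and 235 of all genes. At an unadjusted p under 0.05 the counts were 0, 0 and 2 factors, where 1081, 1125 and 1521 of the 14241 genes reached it. The 2 were Spi1 and Maf on day 3. Spi1 was at 306, 287 and 203 CPM under the KO label and at 359, 339 and 419.5 CPM under the WT label, without overlap, a log2 difference (KO over WT) of -0.49 ± 0.17 (unadjusted p = 0.0102, adjusted p = 0.332, 95% interval -0.85 to -0.13). Maf was at 298, 206 and 272 CPM against 177, 239 and 136 CPM, with overlap, a log2 difference of 0.49 ± 0.21 (unadjusted p = 0.0325, adjusted p = 0.424). Irf8 differed by 0.34 ± 0.35 on day 3 (adjusted p = 0.757). The stromal marker sums of these KO libraries, given above, were all higher than those of the WT libraries.

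On day 0 the widest differences were in Id2 (log2 difference 0.90 ± 0.48, adjusted p = 0.697) and Cebpa (0.75 ± 0.55, adjusted p = 0.836). Without WT day 0 library 1 that of Cebpa was 0.24 and that of Id2 1.32. Bcl6 differed by 0.39 ± 0.28 (adjusted p = 0.825). Neutrophil markers were at a summed 3650 to 11714 CPM in the KO libraries of that day and at 662 to 3012 CPM in the WT libraries, and none of the 8 was called between the labels. The intervals leave room for sizeable differences: for Cebpa on day 0 the 95% interval ran from -0.45 to 1.96 and for Id2 from -0.14 to 1.94. No difference between the labels in the change with RANKL was called for any of the 8 on day 3 or day 1 by the interaction term, where 0% of all genes were called. On day 3 the interaction had an unadjusted p under 0.05 in 1 factor (Maf, given above) and in 769 of the 14241 genes, and on day 1 in 0 factors and 527 genes, and DESeq2 called 0 of the 8 on both. For Spi1 the interaction was -0.46 ± 0.24 (adjusted p = 0.912), for Irf8 0.28 ± 0.49 (adjusted p = 0.979) and for Id2 -0.83 ± 0.67 (adjusted p = 0.927).

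**Figure D4:**
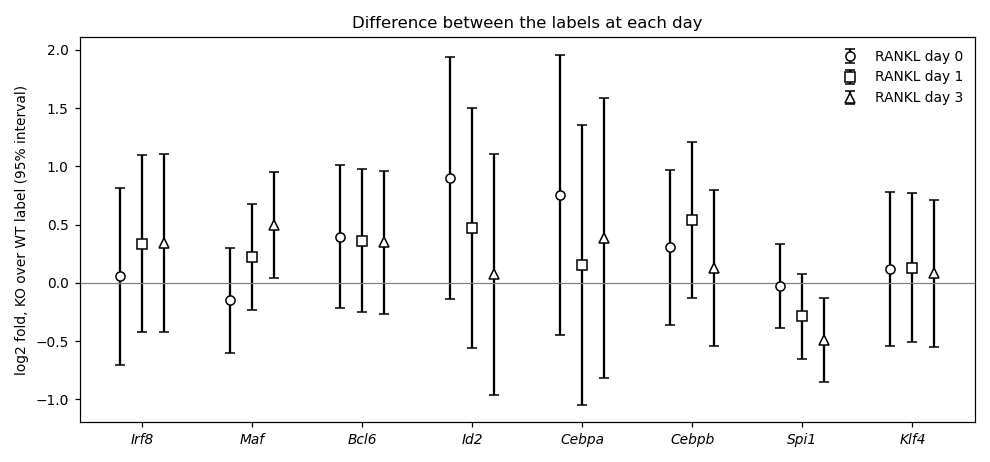
Log2 difference between the libraries labelled KO and WT for each factor on day 0 (circles), day 1 (squares) and day 3 (triangles), with 95% intervals from the fit. All the differences had adjusted p above 0.05, and the interval of Spi1 on day 3 ran from -0.85 to -0.13.

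Levels of different genes were compared per length only. On the deposited FPKM scale (fragments per kilobase of transcript, scaled to the library) Spi1 (99.0 ± 9.4), Cebpb (84.8 ± 7.6) and Maf (74.3 ± 12.2) led on day 0 under the WT label (mean ± SD, n = 3), followed by Irf8 (40.0 ± 2.4), Cebpa (33.3 ± 25.8), Id2 (15.4 ± 6.5), Bcl6 (3.99 ± 0.97) and Klf4 (1.02 ± 0.07). Spi1 and Cebpb overlapped, as did Cebpb and Maf, Irf8 and Cebpa, and Cebpa and Id2. FPKM values do not use TMM, so they were read as an order of genes within a group, not as changes between days. With TMM the log2 fold change of Spi1 on day 3 against day 0 was 0.05 (WT) and -0.41 (KO). Neither passed the test. On day 3 Spi1 stood alone at the top (133 ± 18), without overlap with Cebpb (40.7 ± 7.1), while Irf8 (8.71 ± 3.75) had moved below Id2 (18.01 ± 1.34), again without overlap, and Klf4 (4.14 ± 0.55) above Bcl6 (3.13 ± 0.24). Under the KO label the day 0 order began with Cebpb (107 ± 9) and Spi1 (99.3 ± 4.2), which overlapped, and the day 3 order with Spi1 (91.8 ± 22.1), which did not overlap Cebpb (43.0 ± 11.3). Klf4 (4.27 ± 1.26) and Bcl6 (3.86 ± 0.34) overlapped there. On day 1 Spi1 (103 ± 20.0) led under the WT label without overlap with Cebpb (63.1 ± 21.7), and under the KO label Cebpb (91.4 ± 23.5) and Spi1 (81.7 ± 6.0) overlapped at the top. Maf, Cebpa, Irf8, Id2, Bcl6 and Klf4 followed in this order of means in both, Klf4 last at 2.16 ± 1.21 and 2.25 ± 0.03. Each neighbouring pair from Cebpb to Id2 overlapped under the WT label, and Irf8 and Id2 overlapped under the KO label.

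The lengths behind these FPKM values set the order in part. The length implied by counts and FPKM was 4.79 kb for Cebpa, a gene that spans 2.64 kb, and equals the summed length of its 2 annotated transcripts. The same held for Maf (9.58 kb), Bcl6 (7.46 kb) and Klf4 (4.41 kb), against merged exons of 8.24, 6.70 and 3.05 kb, while Cebpb, with 1 transcript, was divided by 1.504 kb. It did not hold for Irf8 (8.67 kb against a sum of 11.71 kb), Id2 (1.27 against 4.197 kb) or Spi1 (3.305 against 3.593 kb). The merged exons of Irf8 and Id2 were 7.055 and 2.438 kb. Per kilobase of merged exons Cebpa moved up, to 42.2 ± 15.7 CPM per kb on WT day 3, where it exceeded the mean of Cebpb (34.7 ± 6.8 CPM per kb) with overlap. Irf8 stayed above the mean of Id2 on that scale on WT day 3 (9.19 ± 4.12 against 7.99 ± 0.48 CPM per kb, with overlap), so the order of that pair rests on the length used. The merged exons of Id2 are longer than the 2292 bases that the gene spans in the deposited positions. The Id2 level per kb of merged exons is therefore uncertain, and the order of the pair was not settled. Spi1 had the highest mean on both scales on WT days 0, 1 and 3 and KO day 3.

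The relatives of the 8 factors in the same families were described by a list of 34 genes, of which 31 were tested. Like the lists below, it was chosen with earlier results of these data known. On day 3, 17 were called lower and 2 higher under the WT label and 16 lower and 4 higher under the KO label. Over all genes 26.5% were called lower and 23.7% higher (WT), and 22.3% lower and 20.2% higher (KO). The medians of the relatives were -0.99 and -0.65 on the log2 scale. The 4 with the largest WT change were all lower. Cebpe, a C/EBP factor of granulocyte maturation, changed by -4.33 ± 0.94 (adjusted p = 0.00172) under the WT label and -3.80 ± 0.85 (adjusted p = 0.00306) under the KO label. Its day 0 level ran from 2.94 to 13.8 CPM (WT) and from 19.8 to 48.5 CPM (KO), and neutrophil markers moved the same way, as given above. Irf4, an IRF family factor of B cells and some dendritic cells, changed by -3.48 ± 0.60 (adjusted p = 0.000352) and -2.11 ± 0.56 (adjusted p = 0.00857). Irf7, a factor of the interferon response, changed by -2.90 ± 0.64 (adjusted p = 0.00197) and -3.47 ± 0.66 (adjusted p = 0.00101), and its WT day 0 libraries ranged from 144 to 1184 CPM. Spib, a relative of PU.1 in B cells and plasmacytoid dendritic cells, was called under the WT label (-2.83 ± 0.97, adjusted p = 0.0259), with a day 0 range of 0.0774 to 9.65 CPM, and not under the KO label (-2.05 ± 0.94, adjusted p = 0.0913).

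The Id genes Id1, Id3 and Id4, like Id2, were not called in either label. Of the IRF genes Irf1, Irf2, Irf5 and Irf9 were called lower in both labels beside Irf4 and Irf7, and of the KLF genes Klf3, Klf6, Klf11 and Klf13 were lower in both labels. Klf7, Klf9 and Klf16 were higher under the KO label, the direction of Klf4, and were not called under the WT label.

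The genes around Nfatc1 induction were higher or not called, apart from Tfe3. Of 12 tested genes of a list of 13, 6 were higher, 1 (Tfe3) lower and 5 not called under the WT label. Under the KO label 5 were higher, 1 (Tfe3) lower and 6 not called. Over all genes 23.7% (WT) and 20.2% (KO) were called higher. The medians of the list were 1.07 and 0.95. Nfatc1, the master factor of osteoclasts and the gene on which several of the 8 factors act, went from 107 to 114 CPM on WT day 0 up to 509 to 766 CPM on WT day 3, with a change of 2.53 ± 0.20 on the log2 scale (adjusted p = 2.16e-06), and from 84.1 to 100.5 CPM up to 301 to 521 CPM under the KO label (2.17 ± 0.20, adjusted p = 1.12e-05). It did not pass the test on day 1 (0.04 ± 0.19 and 0.11 ± 0.19, adjusted p = 0.93 and 0.897). Prdm1, which encodes Blimp1, rose by 1.63 ± 0.32 (adjusted p = 0.000959) and 1.14 ± 0.32 (adjusted p = 0.011). Jdp2, an AP-1 partner gene of osteoclasts, had the largest change of the list, 5.51 ± 0.71 (adjusted p = 4.11e-05) and 4.06 ± 0.66 (adjusted p = 0.000362). Myc rose in both (2.49 ± 0.50, adjusted p = 0.00106, and 1.34 ± 0.48, adjusted p = 0.0363). Fos, the AP-1 subunit that RANKL uses to start Nfatc1, was called under the WT label (2.53 ± 0.57, adjusted p = 0.00231) and not under the KO label (1.07 ± 0.55, adjusted p = 0.125). The difference between the labels did not pass the test for Fos (interaction -1.46 ± 0.77, adjusted p = 0.921) or for Jdp2 (-1.46 ± 0.84, adjusted p = 0.921).

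Genes that PU.1, C/EBP factors or IRF8 are known to drive in macrophages were lower in 14 of 16 cases in each label, with medians of -2.10 and -1.95. Csf2ra and Cd68 were the pair not called in either. Over all genes 26.5% (WT) and 22.3% (KO) were called lower. Fcgr1, the high-affinity Fc receptor gene, changed by -4.07 ± 0.57 (adjusted p = 7.27e-05) under the WT label and -3.34 ± 0.55 (adjusted p = 0.000388) under the KO label. Ciita, which switches on MHC class II genes, changed by -4.01 ± 0.77 (adjusted p = 0.000782) and -3.66 ± 0.75 (adjusted p = 0.00172). Csf3r, the G-CSF receptor gene and also a gene of neutrophils, changed by -3.52 ± 0.64 (adjusted p = 0.0005) and -2.76 ± 0.61 (adjusted p = 0.0029). Cd14, a coreceptor for lipopolysaccharide, changed by -2.44 ± 0.35 (adjusted p = 8.6e-05) and -2.41 ± 0.35 (adjusted p = 0.000164).

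Osteoclast genes under NFATc1 were higher in 8 of 11 cases in each label, with Atp6v0d2 and Clcn7 called in neither and Tcirg1 called lower under the KO label. Over all genes 23.7% (WT) and 20.2% (KO) were called higher. The median log2 fold change of the list was 6.62 (WT) and 5.41 (KO). It was 6.04 and 5.41 with Calcr and Oscar, which had no more than 2 counts in any day 0 library, set to the bound that 3 counts per library give. Calcr, the calcitonin receptor gene, had 0 counts in every day 0 library and was at least 6.04 (WT) and 5.53 (KO) higher on the log2 scale. Oscar, an immune receptor gene of osteoclasts, had 0 to 2 counts per day 0 library and reached 45.3 to 87.6 CPM on WT day 3 and 25.6 to 98.0 CPM on KO day 3. Dcstamp and Ocstamp, which cells need to fuse, reached 93.7 to 132 CPM and 165 to 214 CPM on WT day 3 and 42.7 to 91.8 CPM and 82.0 to 158 CPM on KO day 3, from at most 1.60 CPM in any day 0 library. On day 1 the 16 macrophage genes, the 11 osteoclast genes and the 31 relatives had 0 calls in either label. The circuit list had 1 gene higher and 1 lower under the WT label. Over all genes 2.35% (WT) and 0.0211% (KO) were called on that day.

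**Figure D5:**
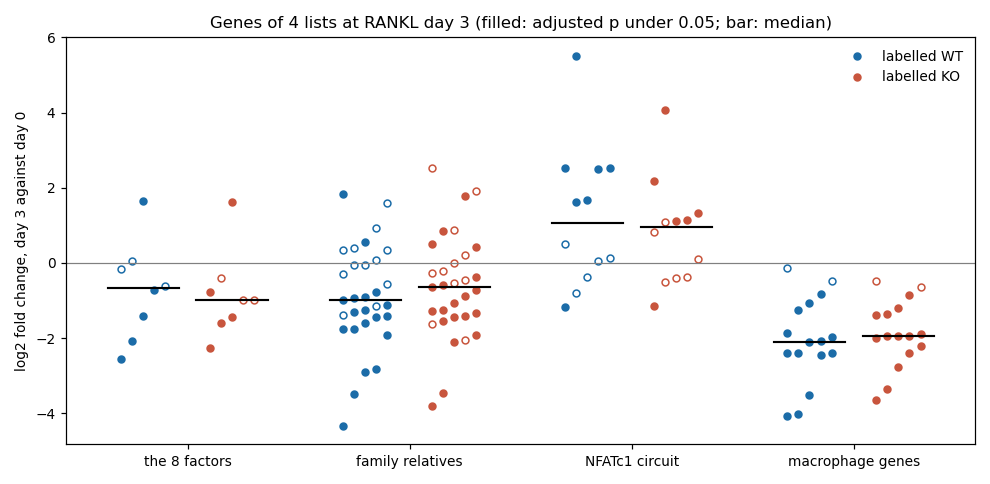
Log2 fold change on day 3 against day 0 for each tested gene of 4 lists, blue for the WT label and red for the KO label, filled where the adjusted p was under 0.05 and with bars at the medians. The 8 factors, their relatives and the macrophage genes lie mostly below 0 (WT medians -0.67, -0.99 and -2.10) and the NFATc1 circuit above it (WT median 1.07).

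Across the 18 libraries correlations between the factors are given as a description, since all points share the 6 groups and the scaling. Irf8 and Maf had a Pearson r of 0.97 in log2 CPM, Irf8 and Cebpb 0.94, Maf and Cebpb 0.92, and Irf8 and Klf4 -0.87. After subtraction of the group means the same 4 values were 0.80, 0.76, 0.76 and -0.73. Bcl6 and Id2 correlated at 0.80, and at 0.78 after subtraction. The subtraction leaves differences between libraries of a group in place, among them those between title styles on day 1 given above. Spi1 had values between -0.34 (with Cebpa) and 0.11 (with Cebpb), and after subtraction between -0.52 (with Cebpa) and 0.54 (with Klf4). The genes most like each factor were Mgst1 (r = 0.99), Tbxas1 and Fli1 for Irf8, and Tnfaip8l2 (r = 0.99), Fli1 and Hlx for Maf, so that Fli1 was near both. For Cebpb they were Tmcc1 (r = 0.96), Hhex and Tmem50a, for Bcl6 Ltbr (r = 0.96), Lilr4b and Plxdc1, and for Klf4 Ptges (r = 0.96), Shmt2 and Ube2e2. Id2 was nearest to Vwf (r = 0.94), F10 and Hey1, Spi1 to Gm11427 (r = 0.91), Narfl and Clec4a2, and Cebpa to Rab43 (r = 0.80), Plekhm3 and Nfya, the loosest of the 8.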

How the data were processed

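RNA sequencing was done on 18 libraries of mouse BMDMs. The authors deposited 1 table with raw read counts and FPKM values for each gene and library, with positions on GRCm38. The methods of the study name StringTie and Ballgown for FPKM. In the deposited values, counts divided by FPKM and by the library total gave nearly the same length for a factor in every library. The aligner and the counting program were not given in the sources used here. RNA was taken with a column kit and made into libraries with a SMARTer kit. No column of per-sample values was left without a sample (0 columns).

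From the deposited counts, differences were tested with edgeR 4.0.16 in R 4.3.3 (filterByExpr at default settings, TMM, glmQLFit and glmQLFTest), all 18 libraries as 6 groups of label and day. P-values are 2-sided and Benjamini-Hochberg adjusted across all 14241 genes tested. Called means an adjusted p below 0.05. SEs come from the F statistic, and 95% intervals use them with 12 residual degrees of freedom. Floors (3 counts) cover counting error only. Log2 CPM for correlations used a prior count of 2. The script was tested on simulated data. The 8 factors and all lists were chosen with earlier results of these data known. Named beside the 8 were Nfatc1, Prdm1, up to 4 genes of each list with the largest called WT day 3 change above 1 CPM, and for each factor the 3 genes with the highest r. Any further gene was picked after its values had been seen. A gene that this rule names is not reported here.

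Same-number libraries were taken as paired where every correlation of their deviations from the group means was above 0.1. This held for KO day 0 and 3 (r 0.130 to 0.398) and KO day 1 and 3 (0.156 to 0.340). In each other pair of groups at least 1 value was at or below 0.1. For KO day 0 and 1 the values were 0.0536, 0.501 and 0.598, so a single value kept them out. Numbers that pair day 3 with both of these days would pair the 2 days with each other as well. The cut at 0.1 was a choice, and whether the libraries share animals was not settled by it. The fit of all libraries used no block, and the pairing entered only the alternatives with replicate blocks. Alternatives were no filter, a stricter filter (5 CPM in 3 libraries), DESeq2 size factors, total counts, DESeq2 1.42.0, limma 3.58.1 on log2 of the deposited FPKM plus 1, only the groups compared, replicate blocks, title style as a covariate, removal of the double hyphen libraries, an average of the pair of WT day 1 libraries that carry number 1, and omission of single libraries. For the order of levels, counts per kb were used, with lengths implied by the table and, chosen after seeing the data, with merged exons of GENCODE vM21.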

Additional observations from a re-analysis of the deposited data

How the results depend on the processing

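Irf8, Maf, Cebpb and Klf4 stayed called in the same direction on day 3 against day 0 in all 18 alternatives run for each label. The count of members called on day 1 against day 0 under the WT label, 0, became 1 with both WT day 1 libraries numbered 1 averaged, 2 with DESeq2, 1 with title style as a covariate, 1 without the 5 double hyphen libraries, and 0 to 2 with a library left out. For day 3 against day 1 under the WT label the count of 4 became 2 with total counts, 2 with the replicate block and 2 with the replicate block within each label, and 2 to 5 with a library left out. In the KO label it became 0 without the 5 double hyphen libraries. The replicate block changed no other count of members beyond 1.5 times. Total counts in place of TMM moved the median of all genes on day 3 from -0.03 to 0.33 (WT) and from -0.01 to 0.29 (KO) and changed no direction of a called factor. The median of the 8 factors on day 3 ran from -0.85 to -0.01 (WT) and -1.17 to -0.68 (KO). The median log2 fold change of each of the 4 other lists kept its sign on day 3 in all 18 alternatives of each label, from -0.98 to -0.49 (WT) and -0.69 to -0.31 (KO) for the relatives. Of the uncalled values given, sign changes were found for Id2 on WT day 3 against day 0 (0.23 with total counts, 0.29 with limma, 0.27 with title style, 0.32 without the double hyphen libraries, -0.41 to 0.29 with a library left out), Cebpa there (0.24 with limma), Spi1 there (-0.0436 to 0.186 with a library left out), Id2 on WT day 1 against day 0 (-0.0803 without the 5 double hyphen libraries, -0.505 to 0.863 with a library left out), Bcl6 on KO day 1 against day 0 (-0.0975 with title style, -0.512 without those 5), Cebpb there (-0.402 to 0.0339 with a library left out) and the Irf8 interaction on day 3 (-0.0388 to 0.58 with a library left out). Of the 7 neighbouring pairs in the order of levels, counts per kb of the implied length kept 7 in every group and merged exons kept 5 in WT day 0, 6 in WT day 1, 5 in WT day 3, 5 in KO day 0, 5 in KO day 1 and 5 in KO day 3. The causes of these changes were not tested.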
